A study of Rattus norvegicus with 8 samples.

Results

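The transcripts of 8 mast cell genes were followed in the outflow veins of rat arteriovenous fistulas (AVFs). The genes were chosen by name, and all 8 of the names were found among the 32623 genes counted. They were Cpa3 (ENSRNOG00000011181), Cma1 (ENSRNOG00000020563), Tpsb2 (ENSRNOG00000018611), Tpsab1 (ENSRNOG00000024181), Fcer1a (ENSRNOG00000009177), Ms4a2 (ENSRNOG00000020993), Hdc (ENSRNOG00000010262) and Kit (ENSRNOG00000002227). The epigastric vein of 8 Sprague Dawley rats was joined to the femoral artery and wrapped at surgery in a bilayer PLA and PLGA nanofiber scaffold, and the vein was harvested on day 21. In 4 rats (3 females and 1 male) the scaffold was loaded with BAPN, β-aminopropionitrile, a lysyl oxidase inhibitor that keeps collagen and elastin fibers from being crosslinked. The other 4 rats (2 females and 2 males) received the vehicle scaffold without BAPN. Every rat carried a fistula and a scaffold, so that neither group is an untouched vein, and the age of the rats is not given in the sources used here. The RNA came from whole pieces of vein, in which fewer mast cells and less RNA per mast cell cannot be told apart.

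Mast cells are resident immune cells of connective tissue that settle around vessels. They store histamine, proteases and heparin in granules and release them when antigen crosslinks IgE on their high-affinity IgE receptor, FcεRI. Their growth and survival depend on stem cell factor, the product of Kitlg, which acts on the receptor tyrosine kinase KIT. Chymase and tryptase, the proteases of the granules, cut matrix proteins and growth factor precursors, and mast cells are a known component of the vascular adventitia.

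Total counts per library ran from 45039451 to 52241007 in the BAPN group and from 19548203 to 22442050 in the vehicle group. Since every BAPN library held at least 2.01 times the counts of any vehicle library, treatment and any technical difference between the libraries of the groups cannot be told apart. Expression is given as CPM, the count of a gene scaled to a common library total, after TMM normalization. 1 CPM was between 43.5 and 50.9 counts in a BAPN library and between 20.3 and 23.9 counts in a vehicle library. Transcript lengths were not used, so levels are compared between rats and not between genes. The groups were compared with edgeR's quasi-likelihood test, and a gene was called at a Benjamini-Hochberg adjusted p (FDR) below 0.05. The test covered the 11682 genes with a base mean (the mean normalized count over all libraries) of at least 100. Fold changes are log2 values of BAPN against vehicle, with standard errors (SE) and 95% confidence intervals (CI) from limma-voom. In marker lists for the vein wall, 4 of 6 tested smooth muscle genes and 2 of 5 tested endothelial genes were called lower in BAPN-treated veins (9.25% of all tested genes were), and 1 of 8 macrophage genes was called higher (7.5% of all tested genes).

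The promoters of Cpa3, Cma1, Mcpt1l1 and Kit are shown 5′ to 3′. The RefSeq promoter windows (build GRCr8) hold 250 bases before and 50 bases after the start, and 7 of the 8 members have one. Ms4a2 has none in the table. Capitals mark AGATAA or TGATAA on either strand, the core that GATA factors such as GATA2, a regulator of mast cell development, recognize. Cpa3 lies at chr2:104673188-104673487 (minus strand), Cma1 at chr15:33390084-33390383 (minus strand), Mcpt1l1, a granule protease gene near Cma1 that is no member, at chr15:33876846-33877145 (minus strand), and Kit at chr14:32978763-32979062 (minus strand).
Cpa3: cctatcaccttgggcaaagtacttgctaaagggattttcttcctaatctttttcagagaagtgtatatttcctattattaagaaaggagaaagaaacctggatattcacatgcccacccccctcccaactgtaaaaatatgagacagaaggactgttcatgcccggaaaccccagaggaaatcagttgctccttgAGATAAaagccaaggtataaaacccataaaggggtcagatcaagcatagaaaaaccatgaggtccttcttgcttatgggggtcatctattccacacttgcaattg
Cma1: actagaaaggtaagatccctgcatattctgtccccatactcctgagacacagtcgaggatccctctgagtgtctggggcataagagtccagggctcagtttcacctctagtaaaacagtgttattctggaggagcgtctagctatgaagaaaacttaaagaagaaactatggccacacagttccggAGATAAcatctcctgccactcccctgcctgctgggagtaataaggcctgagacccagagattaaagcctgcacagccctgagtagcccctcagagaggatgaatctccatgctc
Mcpt1l1: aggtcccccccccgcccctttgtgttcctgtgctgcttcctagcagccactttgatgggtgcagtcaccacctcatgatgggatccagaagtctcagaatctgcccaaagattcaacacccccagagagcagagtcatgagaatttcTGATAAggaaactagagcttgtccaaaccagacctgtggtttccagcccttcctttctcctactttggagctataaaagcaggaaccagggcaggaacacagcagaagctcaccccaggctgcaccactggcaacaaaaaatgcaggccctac
Kit: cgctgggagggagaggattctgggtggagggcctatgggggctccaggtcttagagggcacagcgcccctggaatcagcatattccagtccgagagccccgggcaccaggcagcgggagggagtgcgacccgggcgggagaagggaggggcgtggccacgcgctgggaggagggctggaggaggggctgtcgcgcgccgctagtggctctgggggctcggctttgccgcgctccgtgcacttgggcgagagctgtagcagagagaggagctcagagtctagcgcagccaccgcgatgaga
AGATAA was found in 3 of the 7 members with a promoter, at position -55 from the start in Cpa3, at -64 in Cma1 and, on the opposite strand, at -93 in Fcer1a, and 11.6% of all 33469 promoters of this length hold it. TGATAA was found in none of the 7, against 9.03% of all promoters, but at -103 in Mcpt1l1. The TATA box letters TATAAA stood at -40 in Cpa3, -125 in Fcer1a and -32 in Mcpt1l1 (14.2% of all promoters). Of the E-box forms that MITF and related factors recognize, CATGTG was in Cpa3, Fcer1a and Tpsb2 (14% of all promoters) and CACGTG in no member (6.42%). The Kit window held none of these motifs. A match describes letters only and is not a sign of binding.

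Each of the 8 genes had counts in each of the 8 libraries. Among the 3 members with a base mean of at least 100 (Cpa3, Cma1 and Kit), edgeR called 0 at an FDR below 0.05, while 16.8% of all tested genes were called. At an unadjusted p below 0.05 it counted 1 of the 3 (Cma1), where 35.8% of tested genes passed, limma-voom called 0 (15.3% of all tested genes) and DESeq2 called 1, again Cma1 (27.4% of all tested genes). In a fit without a filter over the 20421 genes with a count, which takes in the other 5 members, edgeR called 0 of 8 (background 7.54%, with 4.03% of genes called lower and 3.51% higher), and 1 of 8 had an unadjusted p below 0.05 (background 24.8%). The fold change was below 0 for 7 of 8 members, all but Kit, where 46.8% of all genes with a count were below 0, and for 2 of the 3 tested members, where 48.4% of tested genes were. The median log2 fold change of the 8 was -1.12, with single genes from -1.51 to 0.12 in that fit, beside a median of 0.05 over all genes.

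Cma1 encodes the α-chymase, a serine protease in the granules of connective tissue mast cells. Its level was 2.75, 3.85, 2.80 and 0.645 CPM in BAPN 1 to 4 and 6.48, 7.72, 9.84 and 4.18 CPM in Vehicle 1 to 4. Every BAPN-treated vein was below every vehicle vein, which makes Cma1 the 1 member of 8 whose groups did not overlap; groups were separated in 16.5% of all genes with a count and in 24.7% of tested genes. The means were 2.51 ± 1.34 and 7.06 ± 2.37 CPM (SD, n = 4 each), a log2 fold change of -1.49 (SE 0.52, 95% CI -2.87 to -0.52) with an FDR of 0.0633. The exact two-sided permutation test of mean log2 CPM gave p = 0.0286, the smallest value that 4 rats against 4 allow. DESeq2 gave an FDR of 0.0123, and the FDR of edgeR ran from 0.0619 to 0.129 as each rat was left out. The margin between the groups was narrow, with 3.85 CPM in BAPN 2 against 4.18 CPM in Vehicle 4, and when every library was thinned to the same total the counts were 53, 83, 49 and 15 against 128, 157, 194 and 78, so that BAPN 2 passed Vehicle 4.

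Cpa3, carboxypeptidase A3, is the granule exopeptidase that marks mast cells of most tissues. It was at 3.18, 5.93, 4.59 and 1.06 CPM in BAPN 1 to 4 and at 6.52, 6, 11 and 4.37 CPM in Vehicle 1 to 4. The groups overlapped, because Vehicle 4 was below BAPN 2 and BAPN 3. The log2 fold change was -0.92 (SE 0.52, 95% CI -2.29 to 0.07) with an FDR of 0.205, between means of 3.69 ± 2.08 and 6.97 ± 2.82 CPM.

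Tpsb2 and Tpsab1 encode tryptases, trypsin-like proteases held as heparin-bound tetramers in the granule. They are related genes that neighbor each other on chromosome 10, and how reads matching more than 1 gene were counted is not given in the sources used here. Tpsb2 was at 1.73, 1.41, 1.61 and 0.395 CPM in the BAPN-treated veins and at 2.52, 2.36, 4.94 and 1.66 CPM in the vehicle veins. BAPN 1, at 1.73 CPM, was the only treated vein above any vehicle vein. The log2 fold change of Tpsb2 was -1.13 (SE 0.54, FDR 0.203 without a filter; exact permutation p = 0.0571). Tpsab1 was at 1.03, 1.02, 2.25 and 0.187 CPM against 1.40, 1.67, 4.82 and 2.04 CPM. BAPN 3 was above all vehicle veins but Vehicle 3. The log2 fold change of Tpsab1 was -1.12 (SE 0.71, FDR 0.311).

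The β subunit of FcεRI is encoded by Ms4a2 and the IgE-binding α subunit by Fcer1a. Ms4a2 was at 0.888, 1.04, 0.988 and 0.291 CPM in the BAPN group and at 2.52, 0.492, 2.97 and 1.28 CPM in the vehicle group. Vehicle 2 was lower than 3 of the BAPN-treated veins, on 10 counts (95% Poisson interval 4.80 to 18.4, which covers counting error only). Its log2 fold change was -1.15 (SE 0.65, FDR 0.274). Fcer1a was at 0.516, 0.569, 0.115 and 0.104 CPM against 0.233, 0.344, 3.14 and 0.0951 CPM. Only Vehicle 3, with 75 counts, stood out, and the other 7 libraries held between 2 and 29 counts. The log2 fold change of Fcer1a, -1.51 (SE 1.03, FDR 0.397), rested on that rat, and without Vehicle 3 it was 0.55. The limma-voom estimate, from which the SE comes, was -0.71, and with sex as a covariate edgeR gave -0.75.

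Hdc, histidine decarboxylase, makes histamine from histidine. It was at 0.434, 1.73, 0.942 and 0.416 CPM in the BAPN group and at 0.839, 1.67, 3.10 and 1.85 CPM in the vehicle group. The ranges overlapped, with BAPN 2 above Vehicle 1 and Vehicle 2. The log2 fold change was -1.06 (SE 0.59, FDR 0.294).

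Kit, the receptor for stem cell factor, did not follow the other members. It was at 30.5, 27.7, 16.3 and 53.0 CPM in BAPN 1 to 4 and at 44.3, 26.4, 26.7 and 23.2 CPM in Vehicle 1 to 4. The highest and the lowest level of all 8 rats were both in the BAPN group. The means were 31.9 ± 15.4 and 30.1 ± 9.58 CPM, with a log2 fold change of 0.08 (SE 0.35, 95% CI -0.78 to 0.80; FDR 0.88). Without BAPN 4 the fold change was -0.29. Kit is also made by melanocytes, germ cells and interstitial pacemaker cells. The melanocyte list (4 of its 5 listed genes had a count, with Tyr at 0 in every library) summed to between 4.58 and 10.1 CPM in the BAPN group and between 7.75 and 16.8 CPM in the vehicle group. In BAPN 4, where Kit was highest, the sum was 4.58 CPM. There Sox10, which Schwann cells also make, was at 1.25 CPM and Pmel at 1.68 CPM, and the melanosome gene Mlana, at 1.39 CPM, was higher than in the other 7 rats (0.351 to 1.23 CPM). Tyrp1 was at 0.25 CPM in BAPN 4 and between 0.459 and 2.06 CPM in the rest of its group. In the vehicle group Tyrp1 was at 5.8 CPM in Vehicle 4 and at 0 in the others. The part of melanocytes in the Kit values was not tested.

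**Figure D1:**
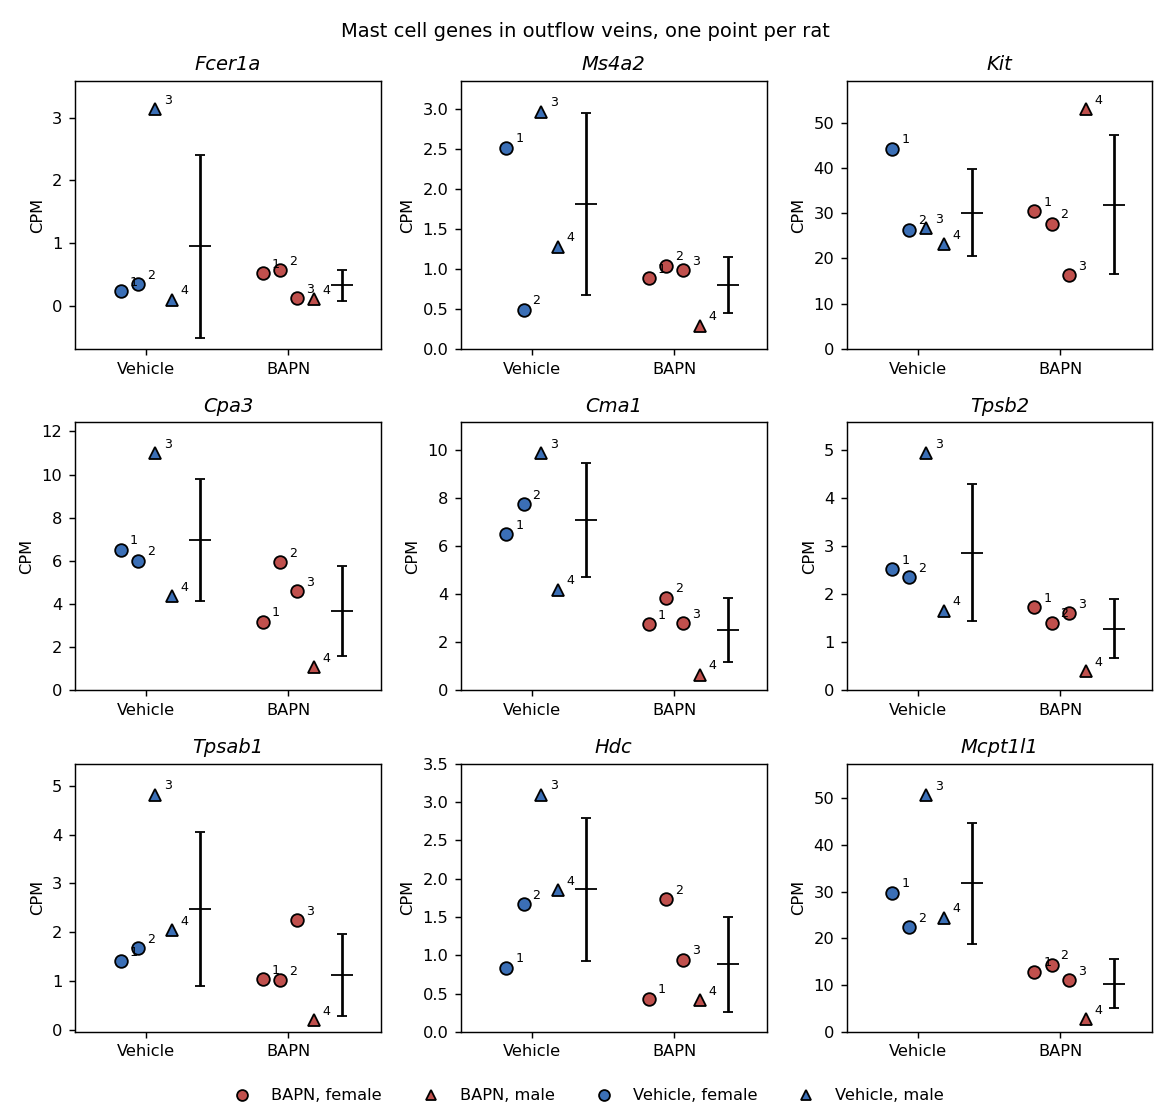
Expression of the 8 members and of Mcpt1l1 in CPM (vertical axes, linear, 1 panel per gene) for each vehicle and BAPN rat, numbered by replicate, with circles for females and triangles for males and bars for the mean ± SD of 4 rats. Cma1 and Mcpt1l1 show no overlap between the groups, Vehicle 3 is highest in every panel but Kit, and BAPN 4, the lowest point for Cpa3 and Cma1, is the highest for Kit.

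A pair of rats stood at the ends of this spread. BAPN 4, the male of the treated group, had the lowest level of 6 of the 7 members other than Kit, and Vehicle 3, a male, had the highest level of all 7. Summed over those 7 members, the level was 10.53, 15.55, 13.3 and 3.099 CPM in BAPN 1 to 4 and 20.5, 20.27, 39.78 and 15.5 CPM in Vehicle 1 to 4. The treated rats lay below the vehicle rats except that BAPN 2 and Vehicle 4 were nearly level. In deviations of log2 CPM from the group mean over the 8 libraries, all 21 pairs of these 7 genes correlated above 0, with Pearson r from 0.31 to 0.96 and a median of 0.65, while all 7 pairs with Kit were below 0 (-0.84 to -0.06). The points of these correlations share libraries, and BAPN 4 weighs on them. With Cpa3, r was 0.96 for Cma1, 0.91 for Tpsb2, 0.85 for Tpsab1, 0.70 for Ms4a2, 0.69 for Hdc, 0.63 for Fcer1a and -0.59 for Kit. When BAPN 4 was left out r was 0.91 for Cma1, 0.79 for Tpsb2, 0.64 for Tpsab1, 0.55 for Ms4a2, 0.65 for Hdc, 0.68 for Fcer1a and -0.17 for Kit.

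**Figure D2:**
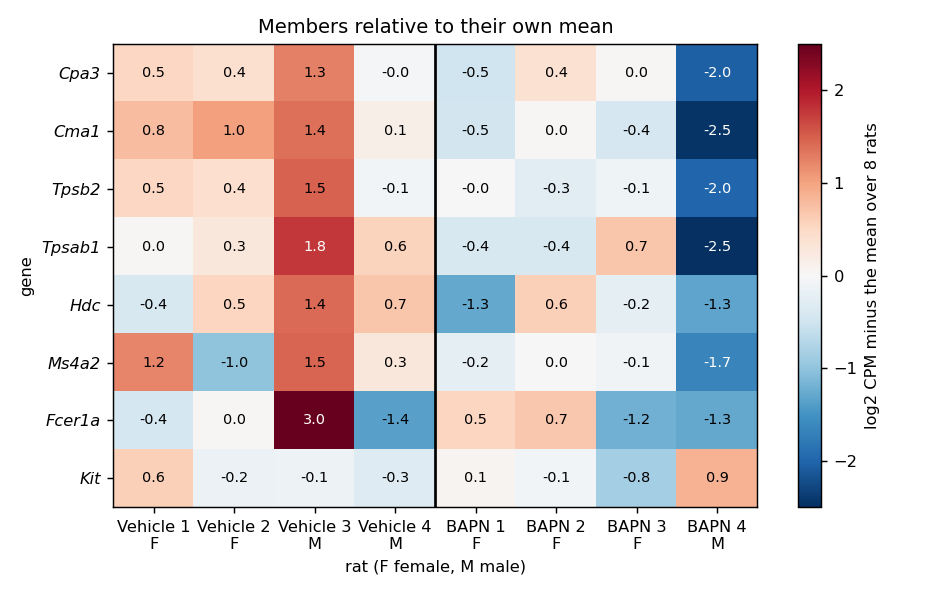
Log2 CPM of each member (rows) in each rat (columns, F female and M male) minus the mean of that gene over the 8 rats, with the difference printed in each cell and coded from blue (lower) to red (higher). The column of BAPN 4 is blue for 7 members and red for Kit, and the column of Vehicle 3 is red for the same 7.

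BAPN 4 also stood apart in other cell types. The B cell and plasma cell list summed to 6.64 CPM there, the lowest of all rats, against up to 219 CPM in the rest of its group, and the endothelial list to 213 CPM, again the lowest. Its macrophage list, at 3200 CPM, and its adipocyte list, at 2930 CPM, were the highest of all rats, but each sum was carried by a few abundant genes and some other genes of both lists went the other way. Cd68 made up 1590 CPM of the macrophage sum, and Fcgr1a (211 CPM) and Msr1 (115 CPM) were also the highest of all rats. Adgre1 (86.4 CPM) and Cd163 (26.3 CPM) were the lowest of all rats and Mrc1 (171 CPM) and Cd14 (178 CPM) the lowest of the BAPN group. In Vehicle 3 the macrophage sum was 1930 CPM, within the vehicle range of 1540 to 2910 CPM, and the B cell and plasma cell sum was 36.9 CPM, the highest of the vehicle group (12 to 36.9 CPM). Jchain, the joining chain of secreted antibodies, was at 4.91 CPM in BAPN 4 and between 124 and 150 CPM in the other treated rats, and Mzb1, a plasma cell chaperone, at 0.166 CPM against 15 to 41.3 CPM. The fatty acid carrier Fabp4 was at 2890 CPM in BAPN 4, while Adipoq, the adipocyte hormone adiponectin, was at 13.4 CPM there and between 15.8 and 27.1 CPM in the rest of its group, Lipe (11.6 CPM) and Cidec (2.41 CPM) were the lowest of all rats, and Plin1 (4.89 CPM) and Lep (0.187 CPM) the lowest of the BAPN group. Between the groups, 2 of 3 tested B cell and plasma cell genes were called higher in BAPN-treated veins (7.5% of all tested genes) and 1 of 5 adipocyte genes lower (9.25% of all tested genes). The part of these cell types in the mast cell values was not tested.

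The groups were unequal in sex. The sex-by-treatment term of edgeR passed an FDR of 0.05 for none of the 8 members, the lowest FDR being 0.19 for Kit (log2 difference of the effect in males minus that in females 1.62) and the next 0.224 for Tpsab1 (-4.04), 0.276 for Cpa3 (-2.37) and 0.298 for Cma1 (-2.23). Unadjusted, 5 of the 8 had a p below 0.05 for this term, which rests on 1 treated male, BAPN 4. The share of all genes with a count was 9.77% at an unadjusted p below 0.05 and 0.196% at an FDR below 0.05. In females alone, 3 against 2, the log2 fold change was -1.18 for Cma1 (FDR 0.101), -0.61 for Ms4a2, -0.60 for Tpsb2, -0.46 for Cpa3, -0.26 for Hdc, -0.08 for Tpsab1, 0.49 for Fcer1a and -0.51 for Kit, each with an FDR above 0.05.

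The 5 genes whose deviations were most like those of Cpa3 among the 11681 other tested genes, by Pearson r over the 8 libraries, were Igh-6 (r 0.97, Spearman rho 0.95), Cma1 (0.96, 0.98), Pou2af1 (0.96, 0.90), Hbegf (0.96, 0.88) and Zswim4 (0.95, 0.93). With BAPN 4 and BAPN 2, the rats whose Cpa3 lay farthest from the mean of their own group, left out, r was 0.90, 0.87, 0.85, 0.87 and 0.91 in that order. Igh-6 is an immunoglobulin heavy chain gene and Pou2af1 a B cell coactivator. Between the groups these genes differed from Cpa3, with log2 fold changes of 5.10 for Igh-6 (SE 2.20, FDR 0.0355, groups overlapping) and 2.46 for Pou2af1 (FDR 0.0654). Hbegf, a growth factor of the EGF family, and Zswim4 had log2 fold changes of -0.15 and 0.03.

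**Figure D3:**
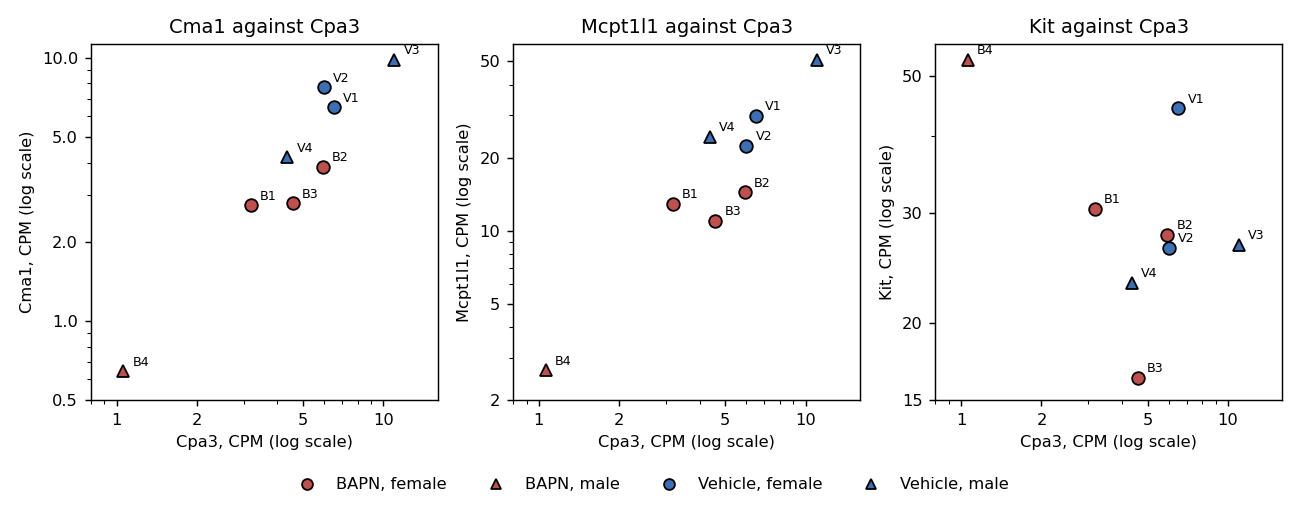
Levels of Cma1, Mcpt1l1 and Kit (vertical, CPM, log scale) against Cpa3 (horizontal, CPM, log scale), 1 point per rat, B for BAPN and V for vehicle with the replicate number, circles for females and triangles for males. Cma1 and Mcpt1l1 climb with Cpa3 from BAPN 4 at the lower left to Vehicle 3 at the upper right, and BAPN 4 has the highest Kit at the lowest Cpa3.

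Beyond the members, other genes of mast cells were read from lists grouped by role. Of the granule list, 13 of 15 listed genes had a count and 5 were tested, of which 2 were called lower in BAPN-treated veins and none higher, where 9.25% of all tested genes were called lower. Mcpt1l1, a chymase-family gene that RefSeq also lists as rat mast cell protease 1, was at 12.9, 14.4, 11 and 2.66 CPM in BAPN 1 to 4 and at 29.8, 22.4, 50.7 and 24.4 CPM in Vehicle 1 to 4. Each vehicle vein was above each treated vein. Its level fell from a mean of 31.8 ± 12.9 to 10.3 ± 5.25 CPM, a log2 fold change of -1.64 (SE 0.49, FDR 0.0429). The call was kept in 10 of 19 alternatives, among them only 2 of the 8 that left out a rat (without BAPN 4 or without Vehicle 2), and its highest FDR was 0.0996, without BAPN 3. In females only its log2 fold change was -1.03 (FDR 0.0749). Mcpt1l1 followed Cpa3 with r = 0.94, or 0.83 without BAPN 4. It lies in the same gene cluster on chromosome 15 as Cma1, where reads of related genes may have been shared. Of its relatives, Mcpt1 had at most 5 counts in a library, Mcpt1l3 at most 3 and Mcpt1l4 at most 16, and Mcpt4 was at 0 in all.

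Hs3st1, a heparan sulfate sulfotransferase of heparin-like chains that endothelial cells also make, fell by 1.09 on the log2 scale (SE 0.21, FDR 0.0157), from 26.5 ± 7.14 to 12.4 ± 1.87 CPM. It stayed called as each rat was left out. The 3 most expressed granule genes are shared with other leukocytes and were not called by edgeR. The log2 fold change was 0.48 for Cd63, a granule membrane tetraspanin, 0.19 for Ctsc, the protease that activates chymase precursors, and 0.54 for Srgn, the granule proteoglycan core (FDR 0.138, 0.527 and 0.0545). Srgn was called by DESeq2 (FDR 0.025) and with every library thinned to the same total (FDR 0.0484).

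The growth factor and transcription factor list had 17 tested genes, 12 with a negative and 5 with a positive log2 fold change, and 2 were called, both lower, near the background of 9.25% called lower among all tested genes, of which 48.4% had a negative log2 fold change. Kitlg, the ligand of KIT made by stromal and endothelial cells, was at 31.7, 38.6, 27.7 and 21.6 CPM in the BAPN group and at 48.0, 34.6, 64.5 and 88.3 CPM in the vehicle group. BAPN 2 was above Vehicle 2, and the other rats were separated by group. Kitlg fell by 0.98 on the log2 scale (SE 0.28, FDR 0.0439), a call kept in 7 of 19 alternatives and, of those that left out a rat, only without Vehicle 2. In females only its log2 fold change was -0.34 (FDR 0.342). The homeobox gene Meis2 fell by 1.09 (SE 0.26, FDR 0.0251; kept in 10 of 19 and, with a rat left out, only without BAPN 2 or Vehicle 2). Gata2, the transcription factor named above, was at 13.6, 7.89, 9.53 and 4.35 CPM against 23.6, 14.0, 19.1 and 16.3 CPM. Its groups did not overlap, and its log2 fold change was -1.04 (SE 0.33, FDR 0.0529). With a rat left out its FDR was 0.0339 without BAPN 1, 0.0481 without Vehicle 2 and above 0.05 in the other 6 cases, up to 0.133 without Vehicle 1. Gata2 was called by DESeq2 (FDR 0.0102), by limma-voom (FDR 0.0445) and with equal library totals (FDR 0.0352), and had an FDR of 0.168 in females only. Endothelial and blood progenitor cells also use Gata2, and the endothelial list, with 2 of 5 tested genes called lower, ran from 213 to 401 CPM in the BAPN group and from 520 to 1210 CPM in the vehicle group. The sum was highest in Vehicle 1, where Vwf, von Willebrand factor, was at 764 CPM, against 106 to 268 CPM in the other vehicle rats and 58.3 to 102 CPM in the BAPN group. Cdh5, VE-cadherin, had a log2 fold change of -0.97 (FDR 0.0736). The part of this list in the values of Kitlg, Gata2 and Hs3st1 was not tested. The most expressed genes of the growth factor list were Il33, an alarmin that acts on mast cells, the transcription factor Zeb2 and Csf2rb, the receptor chain shared by interleukin-3 and GM-CSF, with log2 fold changes of -0.19, -0.43 and 0.32, none of them called.

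Of the signaling genes downstream of FcεRI and KIT, all 20 were tested. A positive log2 fold change was found in 13, where 48.4% of all tested genes had a negative one. Of the 20, 4 were called higher (background 7.5%) and 1 lower (background 9.25%). Ptpn6, the phosphatase SHP-1 that limits receptor signals, rose by 0.73 (SE 0.15, FDR 0.0170). Lyn, the kinase that phosphorylates FcεRI, rose by 0.60 (SE 0.18, FDR 0.0436), the guanine exchange factor Vav1 by 0.55 (SE 0.16, FDR 0.0409) and the adaptor Lcp2 by 0.49 (SE 0.15, FDR 0.0459). Stim1, the calcium sensor of the endoplasmic reticulum, fell by 0.51 (SE 0.10, FDR 0.0169). Fcer1g, the γ chain of FcεRI that Fc receptors of macrophages also use, was at 661, 706, 870 and 882 CPM in the BAPN group and at 382, 615, 521 and 291 CPM in the vehicle group. Fcer1g was higher in each treated rat than in any vehicle rat, with a log2 fold change of 0.78 (SE 0.26, FDR 0.0506), whereas Fcer1a and Ms4a2, the subunits of the same receptor, had log2 fold changes below 0. With a rat left out, the FDR of Fcer1g was 0.0258 without Vehicle 2 and above 0.05 in the other 7 cases, up to 0.13 without Vehicle 1. DESeq2 called Fcer1g (FDR 0.00804), and in females only its FDR was 0.219. Syk, the kinase that binds the γ chain, had a log2 fold change of 0.17 (FDR 0.715). These genes are made by other leukocytes as well. The macrophage list summed to between 2580 and 3200 CPM in the BAPN group and 1540 and 2910 CPM in the vehicle group, with Cd68 at 1150 ± 302 and 790 ± 330 CPM and Csf1r, the receptor for macrophage colony-stimulating factor, at 789 ± 83.1 and 700 ± 153 CPM, and its part in the values of the signaling genes was not tested. As each rat was left out, the calls of Lyn and Lcp2 were kept only without Vehicle 2 and that of Vav1 only without BAPN 2 or Vehicle 2, and those of Ptpn6 and Stim1 were lost only without Vehicle 1.

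**Figure D4:**
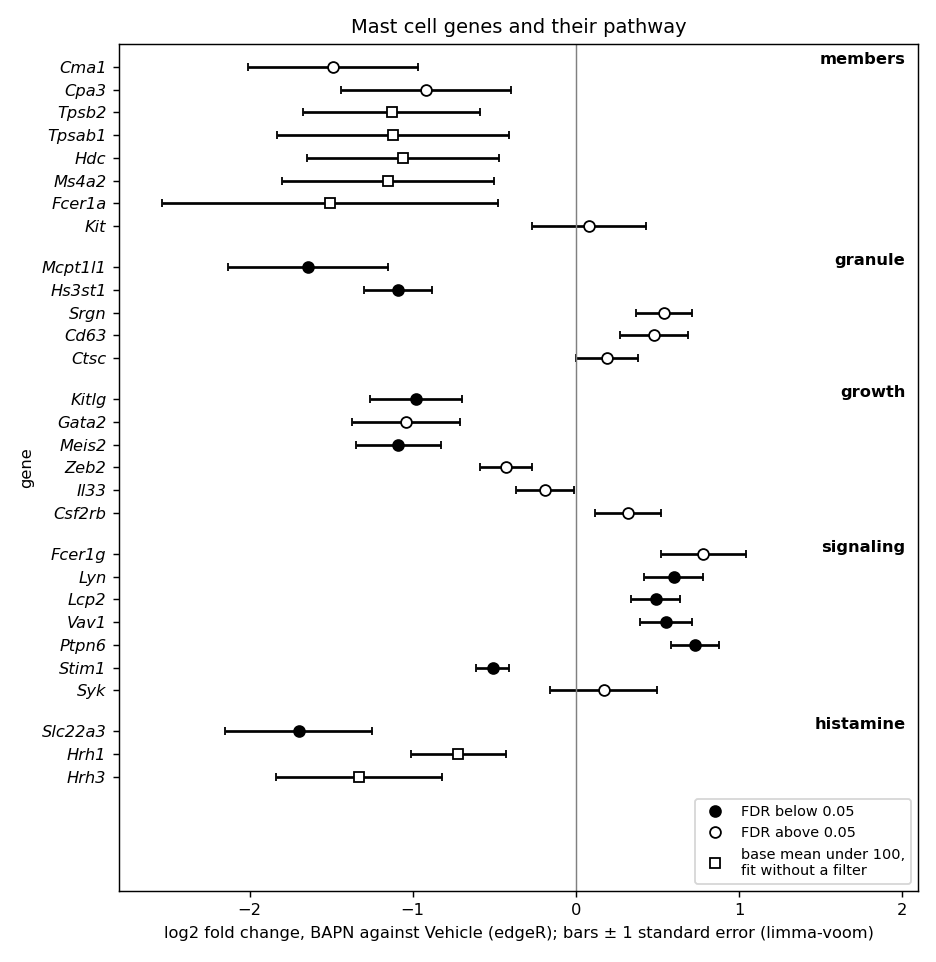
Log2 fold change of BAPN against vehicle (horizontal axis, edgeR; bars ± 1 SE from limma-voom) for the members and for named genes of the granule, growth, signaling and histamine lists. Filled points passed an FDR of 0.05, and squares mark genes under the base mean of 100, taken from the fit without a filter. The 7 members other than Kit lie between -1.51 and -0.92, and the signaling genes Fcer1g, Lyn, Lcp2, Vav1 and Ptpn6 lie above 0.

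Among the genes of histamine transport and reception, only Slc22a3, an organic cation transporter that takes up histamine and other amines, reached the base mean. It was at 2.38, 1.85, 1.29 and 0.749 CPM in BAPN 1 to 4 and at 7.50, 4.43, 5.86 and 2.52 CPM in Vehicle 1 to 4. The groups did not overlap, and Slc22a3 fell by 1.70 (SE 0.45, FDR 0.0323), a call kept in 13 of 19 alternatives and, with a rat left out, only without BAPN 1, Vehicle 2 or Vehicle 4. The receptors Hrh1 and Hrh3 were below the base mean, with log2 fold changes of -0.72 (FDR 0.201) and -1.33 (FDR 0.199) without a filter. Hnmt, which methylates histamine, was listed at 0 in all libraries. Of 12 tested genes for other mast cell surface receptors, edgeR, DESeq2 and limma-voom each called 0, where edgeR called 16.8% of all tested genes, and 2 had an unadjusted p below 0.05 in edgeR, as had 35.8% of all tested genes, and the most expressed were C5ar1 (log2 fold change 0.51, FDR 0.121), Enpp3 (0.70, FDR 0.123) and C3ar1 (0.19, FDR 0.556). Of 5 tested lipid mediator genes these tools called 0 as well (background 16.8% in edgeR), with 1 at an unadjusted p below 0.05 (background 35.8%) and log2 fold changes of 0.57 for Alox5ap, 0.13 for Alox5 and -0.34 for Ptgs1.

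Basophils and eosinophils share some of these genes. None of the 9 listed basophil and eosinophil genes reached the base mean, 6 had a count, and their sum was between 1.93 and 3.85 CPM in the BAPN group and between 2.33 and 3.54 CPM in the vehicle group. The defining markers Prss34, Prg3 and Ear1 were at 0 in all libraries, and Epx and Prg2 were at 0 in every vehicle library. In the BAPN group Prg2 had 7 counts in BAPN 3 and 2 in BAPN 4, and Epx had 3 counts in BAPN 1. Mcpt8l2 and Mcpt8l3, of the basophil protease family, averaged 0.298 ± 0.0965 and 0.405 ± 0.039 CPM in the BAPN group and 0.359 ± 0.453 and 0.264 ± 0.287 CPM in the vehicle group. Il5ra and Ccr3, receptors of eosinophils, had log2 fold changes of -0.02 and -0.08 without a filter.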

How the data were processed

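Total RNA of 8 veins (4 BAPN, 4 Vehicle; day 21) was depleted of ribosomal RNA and sequenced. The authors deposited whole-number counts of reads per Ensembl gene for each rat, without normalization. The submitters' processing notes name bcl2fastq 2.17, Trim Galore and STAR. The counting tool, strand setting and genome build are not given in the sources used here, so the treatment of reads that match several related protease genes is unknown. Groups, replicate numbers and sex came from the labels, which do not name batches, and each label was taken as a separate rat. Library pairs of a group differed by more than counting noise (chi-square per degree of freedom from 68.5 to 321). The deposited counts were TMM normalized and compared with edgeR 4.0.16 in R 4.3.3 (treatment as the only term, FDR below 0.05). The study's own cutoff, a base mean of 100, decided which genes were tested. Members below it were read from a fit without a filter. SEs and confidence intervals came from limma 3.58.1 (voom). The log2 CPM used a prior count of 2, and exact two-sided permutation tests went through 70 arrangements. The steps were tested on simulated counts. Alternatives were DESeq2 1.42.0, limma-voom, other scaling and filters, sex as a covariate, females alone, a replicate block, equal library totals and each rat left out. Named were all members, of each mast cell list the called genes and the 3 most expressed, Mcpt and basophil or eosinophil genes with a count, and the 5 genes most like Cpa3. Gata2, Fcer1g, Mlana, Tyrp1, Mcpt4, Hnmt, the further macrophage and adipocyte genes of BAPN 4 and the markers at 0 were named after their values were seen. Of other cell types, the 2 most expressed genes are named only for lists set beside a mast cell value. Of the rest, edgeR called 2 of 7 tested T cell genes higher (7.5% of all tested genes) and 1 of 6 dendritic genes lower (9.25% of all tested genes). It called 0 of 2 neutrophil, 6 fibroblast, 5 Schwann cell, 2 skeletal muscle, 1 keratinocyte and 4 red cell genes (16.8% of all tested genes were called). Of these, 0, 3, 0, 1, 1 and 0 had an unadjusted p below 0.05 in edgeR (35.8% of all tested genes). The members and lists were chosen with earlier results of these data known. The RefSeq table (GRCr8) served for gene names, neighbors and promoters only.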

Additional observations from a re-analysis of the deposited data

Results flagged for a closer look

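In each group of 4 rats, a level was marked where its gap to the nearest other rat divided by the range of the group exceeded Dixon's 95% critical value. Of 42 such groups (21 named genes in BAPN and in Vehicle), 3 met this, where chance marks about 1 in 20. Kit was at 44.3 CPM in Vehicle 1, and at 23.2 to 26.7 CPM in the other vehicle veins. Fcer1a was at 3.14 CPM in Vehicle 3, and at 0.0951 to 0.344 CPM in the others. Ptpn6 was at 140 CPM in Vehicle 2, and at 96.5 to 102 CPM in the others.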

How the results depend on the processing

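The 7 members other than Kit were lower in BAPN-treated veins in 126 of 128 alternative fits, and 1 of these fits had an FDR below 0.05 (Cma1 with DESeq2). The exceptions were Fcer1a in females only (0.49) and without Vehicle 3 (0.55), and its log2 fold change ran from -1.92 to 0.55 as each rat was left out. Log2 fold changes shifted by over 1.5 times in females only for Cpa3 (-0.46), Ms4a2 (-0.61), Tpsb2 (-0.60), Tpsab1 (-0.08), Hdc (-0.26), Mcpt1l1 (-1.03), Kitlg (-0.34) and Vav1 (0.36), without Vehicle 3 for Cpa3 (-0.61), Tpsb2 (-0.75) and Tpsab1 (-0.60), without BAPN 2 for Hdc (-1.62) and without BAPN 3 for Tpsab1 (-1.70), and for Fcer1a with limma-voom (-0.71), sex as a covariate (-0.75) and the replicate block (-0.38). Kit turned to -0.51 in females only, -0.01 with the replicate block, -0.29 without BAPN 4 and -0.03 without Vehicle 4, in a range of -0.29 to 0.33 as each rat was left out. DESeq2 called 1 of the 3 tested members and 1 of all 8, and every other alternative called 0. As each rat was left out, edgeR called 0 members in every case and the median log2 fold change of the tested members ran from -1.26 to -0.61. The number of all genes called, 1957 in the comparison as reported, was 3202 with DESeq2, 930 with sex as a covariate, 89 in females only and 556 with the replicate block, and from 397 (without Vehicle 1) to 2215 (without Vehicle 2) as each rat was left out. It was 1224, 745 and 856 with BAPN 2, 3 or 4 left out, and 1210 and 963 with Vehicle 3 or 4 left out. Calls in the signaling list (5) became 8 with DESeq2, 2 with total counts only, 2 with sex as a covariate, 0 in females only, 0 with the replicate block and 3 without a filter. Calls in the growth list (2) became 5 with DESeq2, 0 with sex as a covariate, 0 in females only, 0 with the replicate block, 4 with equal library totals and 1 without a filter. Granule calls (2) became 1 with sex as a covariate, 0 in females only and 1 with the replicate block, and the histamine call (1) became 0 in females only. As each rat was left out, calls ran from 0 to 8 for signaling, 0 to 5 for growth, 1 to 2 for granule, 0 to 1 for histamine and 0 to 1 for lipid mediators. Fewer rats were fitted in females only and in the fits without a rat; for the others the cause was not tested. Rats with the same replicate number share only the number. Their deviations from the group means correlated at 0.09, -0.26, 0.27 and -0.14 for numbers 1 to 4. With 2 to 75 counts of Fcer1a in a library, depth limits what can be said of this gene, and levels of the tryptases, Ms4a2 and Hdc rest on 9 to 118 counts.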
